A study of Mus musculus with 24 samples.

Results

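The enzymes that make and recycle glutathione and those that remove superoxide and hydrogen peroxide were followed in mouse liver across 3 diets, together with 3 genes of the NRF2 response. They were taken as every probe set whose platform annotation lists exactly 1 gene symbol, that symbol being Gss, Gclc, Gclm, Gsr, Sod1, Sod2, Cat, Nqo1, Hmox1 or Osgin1. All 10 genes were on the array, with 22 probe sets of the 45037 tested, between 1 and 5 per gene. Livers came from 18 male C57BL6J mice with 1 Affymetrix array each. In the HF+P group 6 mice ate a diet with 45% fat and 5% powdered propagules (aerial tubers) of Japanese yam, in the HF group 6 ate the 45% fat diet alone, and in the LF group 6 ate a low-fat diet. All mice were acclimated on the low-fat diet, stayed on their own diet for 4 weeks and were fasted for 16 h before a piece of whole liver was frozen. RNA was of a tissue piece, so that fewer cells of a type and less RNA per cell cannot be told apart.

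Glutathione is a tripeptide of glutamate, cysteine and glycine. Glutamate-cysteine ligase, a catalytic and a modifier subunit, joins the first pair, glutathione synthetase adds the glycine, and glutathione reductase returns the oxidised form to use. Superoxide dismutases turn superoxide into hydrogen peroxide, which catalase and the glutathione peroxidases remove. Liver makes and exports much of the body's glutathione. The transcription factor NRF2, held back by KEAP1, raises many of these genes through the antioxidant response element in their regulatory DNA.

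The response element core TGACNNNGC was searched on both strands in the 250 bases before each gene's start (RefSeq, GRCm38.p6), where 7 of the 10 genes had an entry. It was present in 2 of these, Gclm and Sod1, and in 10.2% of all 32851 such windows. The upstream windows of Gss and Sod2 are shown because these are the genes that passed the test below; neither holds the core, and thus no capitals. Elements farther from the start were not searched.
Gss (chr2:155592811-155593060, minus strand): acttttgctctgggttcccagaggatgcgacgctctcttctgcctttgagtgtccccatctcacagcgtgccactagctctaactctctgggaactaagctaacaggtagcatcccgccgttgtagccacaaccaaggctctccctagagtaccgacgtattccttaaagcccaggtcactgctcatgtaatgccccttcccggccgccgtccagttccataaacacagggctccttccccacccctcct
Sod2 (chr17:13007589-13007838, plus strand): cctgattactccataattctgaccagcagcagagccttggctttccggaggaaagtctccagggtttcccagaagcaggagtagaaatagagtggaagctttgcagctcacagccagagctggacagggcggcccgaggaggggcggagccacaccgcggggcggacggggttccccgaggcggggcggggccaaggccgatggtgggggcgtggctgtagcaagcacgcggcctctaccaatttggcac
For Gclm and Sod1 the stretch around the match is shown, with the core in capitals. The match lies on the reverse strand in both, and its first capital is 134 bases before the start in Gclm and 56 bases before it in Sod1.
Gclm (within chr3:122245307-122245556, plus strand): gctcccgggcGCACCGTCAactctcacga
Sod1 (within chr16:90220512-90220761, plus strand): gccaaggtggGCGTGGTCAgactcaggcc

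The arrays of the HF mice were processed by the authors once with the LF arrays and once with the HF+P arrays, and the 2 resulting value sets were not mixed in any test. Values deposited for a probe set differ very little between mice. The pooled within-group SD had a median of 4.06 millionths of a log2 unit over all probe sets where HF was set against LF and of 4.2 millionths for HF+P mice set against HF mice. For the 22 member probe sets it ranged between 0.885 and 9700 millionths in HF against LF. Differences are therefore given in millionths of a log2 unit and as standardized differences (pooled SDs, Hedges-corrected, 95% interval, n = 6 per group), and not as fold changes. A member was called at an adjusted p below 0.05 (limma, Benjamini-Hochberg over all 45037 probe sets). Hepatocyte markers lay between 10.9 and 14.9 in the values of HF with LF and between 9.95 and 14.9 in those of HF+P with HF. The lowest in each was Apob 1457554_at. Alb lay at 14.9 and the Ttr probe sets between 14.2 and 14.7, in a table that reaches 15. The mean of the HF arrays for a member shifted between the value sets by up to 0.791 log2 units, and their SD changed by a factor between 0.246 and 5.18. Even so, the highest HF mouse was the same animal in both value sets for 19 of 22 probe sets, and the lowest for 19 of 22.

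**Figure D1:**
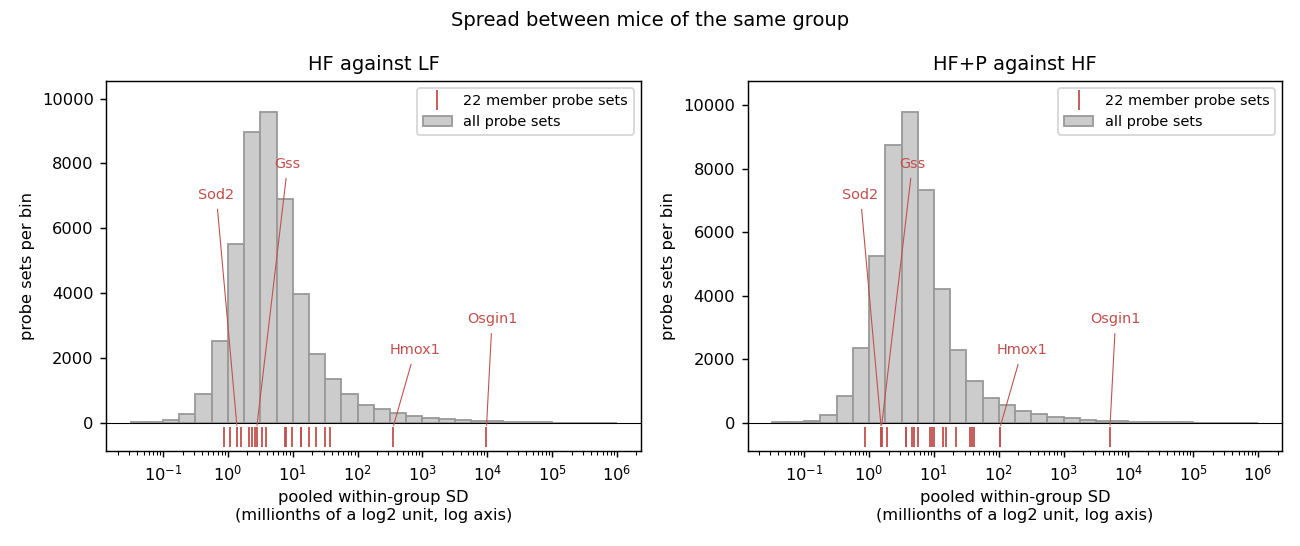
Histograms of the pooled within-group SD of all probe sets (grey bars, log x axis in millionths of a log2 unit, y axis in probe sets per bin) for HF with LF at left and HF+P with HF at right, with the 22 member probe sets as red ticks. Osgin1, at 9700 and 5170 millionths, and Hmox1, at 347 and 103 millionths, stand far to the right of the called probe sets of Gss and Sod2.

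High-fat feeding was tested by setting HF mice against LF mice. One probe set of Gss and one of Sod2 rose in HF livers, so that 2 of 22 member probe sets (9.09%) rose, 0 fell and 20 did not pass. Over all probe sets 0.671% were called, 0.269% higher and 0.402% lower. These counts and directions depend on the scaling: with column-median centring 1 member was called higher and 18 lower, as were 42047 of all probe sets, and with quantile normalisation 1 was called higher and 2 lower among the 14 members that had a value. The median standardized difference was 0.45 over the members and 0.01 over all probe sets, and 16 of the 22 members (72.7%) had a higher value in HF, against 50.8% of all probe sets. Probe sets of the same gene are not independent: Sod1 gave 5 of the 16 and Sod2 gave 4, while Gsr, Cat and Nqo1 gave 0. The Sod1 probe sets include 1447761_x_at at a mean level of 5.84 and 1440222_at at 7.11, where the column medians were 6.9. Both called genes had probe sets in which no HF mouse overlapped an LF mouse, and 0 members separated downward. Over all probe sets 1.57% separated in either direction, 0.644% upward and 0.921% downward. At an unadjusted p below 0.05 there were 7 of 22 members (31.8%), against 12.9% of all probe sets (limma); they belong to Gss, Sod2, Gclm, Sod1 and Osgin1, and several share a gene.

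**Figure D2:**
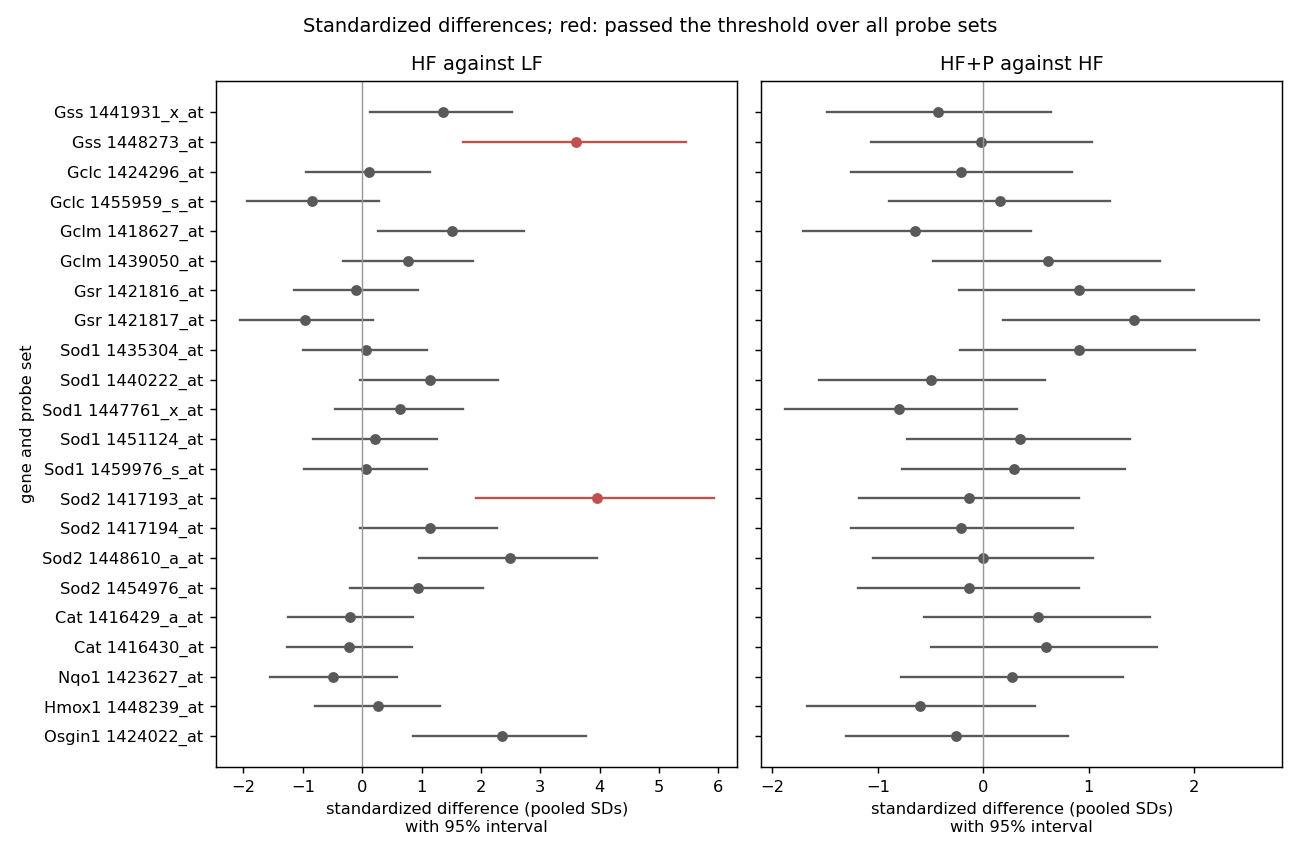
Standardized differences (points, x axis in pooled SDs) with 95% intervals (lines) of the 22 member probe sets (rows), for HF minus LF at left and HF+P minus HF at right, 6 mice per group. Red marks the 2 probe sets that passed, Gss at 3.60 and Sod2 at 3.95, both in HF against LF.

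Gss encodes glutathione synthetase, the enzyme of the last step. Relative to the LF mean, its probe set 1448273_at had a lowest, median and highest value of 6.88, 11.3 and 14 millionths in HF mice, against -2.85, -0.443 and 5.01 millionths in LF mice. The lowest of the 6 HF mice exceeded the highest LF mouse. The difference was 10.8 millionths, with SDs of 2.60 in HF and 2.94 in LF, or 3.60 pooled SDs (1.70 to 5.45; limma, adjusted p = 0.0137). The exact two-sided permutation test gave p = 0.00216, the smallest that 924 assignments allow. The other Gss probe set, 1441931_x_at, whose suffix marks probes that can match unrelated transcripts, had a standardized difference of 1.36 (0.14 to 2.53) and did not pass (limma, adjusted p = 0.287). Of its HF mice, 4 lay above all LF mice.

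Sod2 encodes the manganese superoxide dismutase of mitochondria. For 1417193_at the lowest, median and highest values relative to the LF mean were 4.56, 5.98 and 7.16 millionths in HF mice, against -1.86, -0.210 and 2.69 millionths in LF mice. The groups did not overlap, and the spread was narrower in HF (SD 0.844 millionths) than in LF (SD 1.77 millionths). The difference of 5.93 millionths was 3.95 pooled SDs (1.92 to 5.92; limma, adjusted p = 0.0119), with an exact permutation p of 0.00216. All 4 Sod2 probe sets had higher values in HF. A second one, 1448610_a_at, had a difference of 6.39 millionths and a standardized difference of 2.49 (0.96 to 3.96), with 5 of 6 HF mice above all LF mice, and missed the threshold (limma, adjusted p = 0.0655). The remaining ones, 1417194_at and 1454976_at, had values of 1.14 and 0.94 (limma, adjusted p = 0.389 and 0.488).

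The differences of Gss and Sod2 are smaller than the shift of the column medians between HF and LF, 64.5 millionths, and with median centring both turn negative and are called lower in HF, at -2.15 for Gss and -2.52 for Sod2 (limma, adjusted p = 0.00175 and 0.000641). That shift is close to the distance between neighbouring probe sets in the middle of the table, which averaged 48.8 millionths over the central 100 places, and it was 33.6 millionths when the 64 control probe sets were counted. The median of the HF minus LF differences over all probe sets was 0.0353 millionths. With each column centred on its median deviation from the probe sets' means, Gss had 3.62 and Sod2 3.82 (limma, adjusted p = 0.0133 for each). Quantile normalisation, which sets values by rank, gave -1.83 for Gss, whose rank spanned 4 places and which was then called lower in HF (limma, adjusted p = 0.0399), and could give no value for Sod2 1417193_at, whose rank was the same on all 12 arrays.

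**Figure D3:**
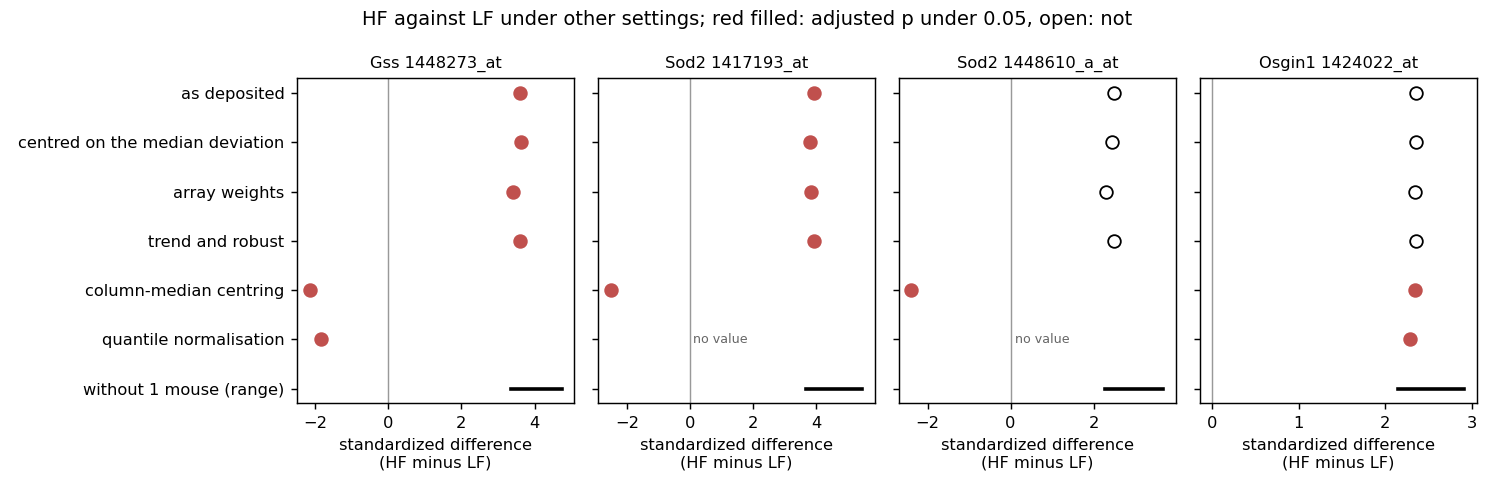
Standardized differences of HF minus LF (x axis, pooled SDs) for 4 probe sets under 6 settings (rows), with the range over the fits that leave out 1 mouse as a bar; filled red points had an adjusted p below 0.05 and open points did not. Gss and Sod2 change sign with column-median centring, and Gss also with quantile normalisation, while Osgin1 lies between 2.28 and 2.35 in every setting drawn as a point.

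Osgin1, an oxidative stress induced growth inhibitor and NRF2 target, had by far the widest spread of the members. Its lowest, median and highest values relative to the LF mean were 9850, 23200 and 42100 millionths in HF mice, against -10500, -1120 and 11900 millionths in LF mice. Of the HF mice 5 lay above the highest LF mouse and HF mouse 1 did not. The difference of 24700 millionths was 2.35 pooled SDs (0.86 to 3.77) and missed the threshold over all probe sets (limma, adjusted p = 0.0711; exact permutation p = 0.00433). With 1 probe set per gene it passed (limma, adjusted p = 0.0497 over 18193 genes), as it did among the probe sets above the median level (0.0437). It also passed, in the same direction, with quantile normalisation (2.28; limma, adjusted p = 0.0161) and with column-median centring (2.34; limma, adjusted p = 0.000645). Those scalings called 6766 and 42369 of all probe sets. Osgin1 passed in 0 of the 12 fits without 1 mouse (limma, adjusted p = 0.0524 to 0.157). Nor did it pass with trend and robust variance or with centring on the median deviation (limma, adjusted p = 0.0763 and 0.0708).

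**Figure D4:**
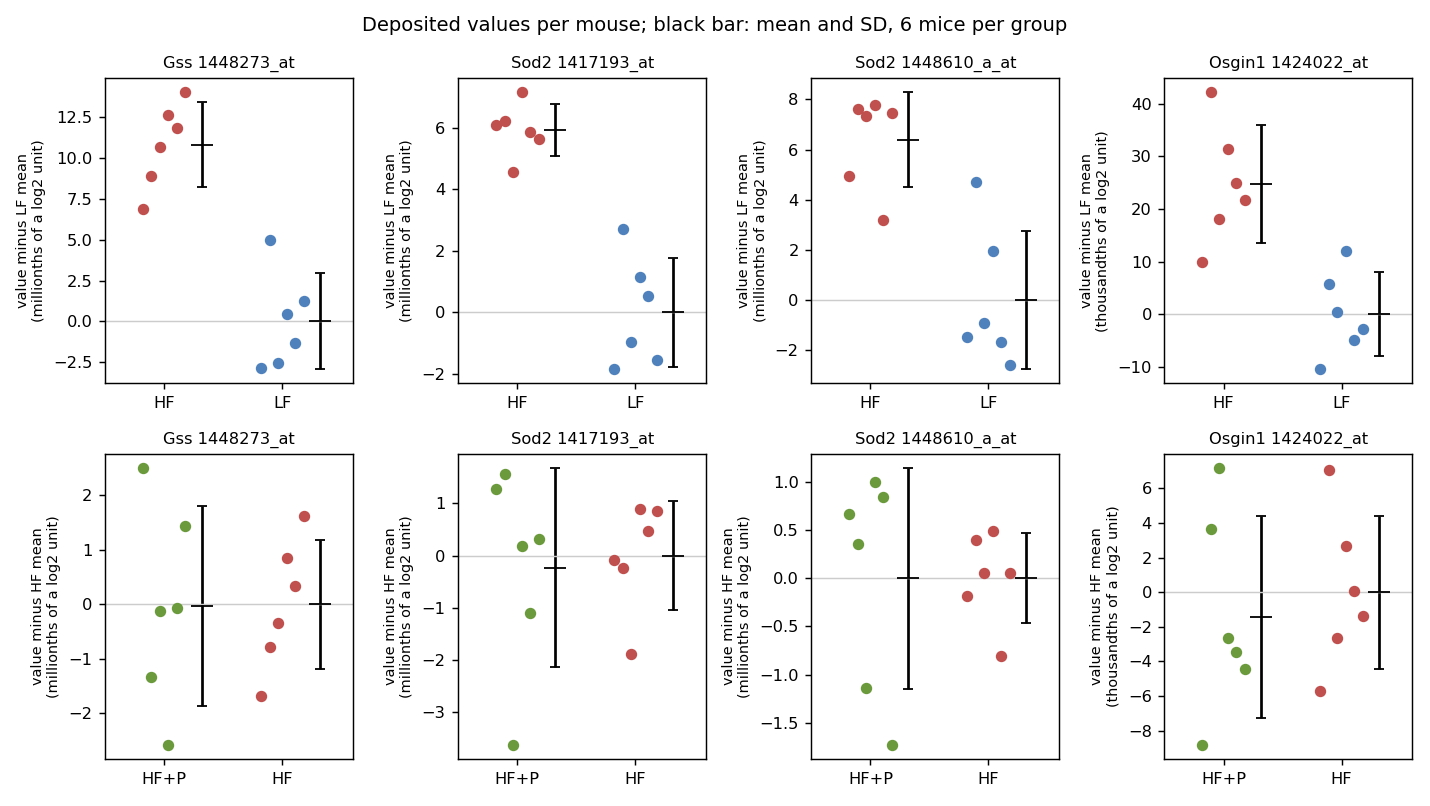
Deposited value of each mouse (points) minus the mean of the right-hand group, with the group mean and SD as black bars, for 2 comparisons (rows) and 4 probe sets (columns); the y axis is in millionths of a log2 unit, and in thousandths for Osgin1. In the upper row the 6 HF mice of Gss 1448273_at and Sod2 1417193_at lie above all LF mice, and in the lower row HF+P and HF mice overlap in every panel.

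The ligase that starts glutathione synthesis did not pass in either subunit. Gclm, the modifier subunit, had a standardized difference of 1.52 (0.26 to 2.72) for 1418627_at (limma, adjusted p = 0.228). Its lowest, median and highest values were 19.4, 49.9 and 137 millionths in HF mice, against -45.7, 9 and 29.3 millionths in LF mice, so 4 HF mice exceeded every LF mouse. The other Gclm probe set, 1439050_at, had 0.78 (-0.33 to 1.86). Gclc, the catalytic subunit, had 0.11 (-0.94 to 1.15) and -0.85 (-1.94 to 0.28) in its 2 probe sets, whose signs differ. Gsr, the reductase, had -0.11 (-1.15 to 0.94) and -0.96 (-2.06 to 0.19), and only HF mouse 3 lay above the LF mean for the second, 1421817_at.

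For the other members that act on peroxide or superoxide, Sod1 and Cat, the intervals all included 0. Sod1, the copper-zinc dismutase of the cytosol, had 5 probe sets with standardized differences between 0.06 and 1.15. The largest, 1440222_at, came with an interval of -0.03 to 2.28 (limma, adjusted p = 0.379) and lay at a low level of 7.11. The brightest Sod1 probe sets, 1451124_at at 13.1 and 1459976_s_at at 13, had 0.22 and 0.06. For 1451124_at, HF mouse 8 lay at 52.8 millionths above the LF mean, while the other HF mice lay between -13.8 and 3.81 and the LF mice between -7.89 and 7.68. Cat, catalase of peroxisomes, had -0.20 (-1.25 to 0.85) and -0.22 (-1.26 to 0.84). Its first probe set, 1416429_a_at, had the narrowest spread of the members, with a pooled SD of 0.885 millionths.

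Nqo1, a quinone reductase often used as an NRF2 marker, had a standardized difference of -0.49 (-1.55 to 0.58). Its mean level of 6.95 was close to the column median of 6.9. HF mice lay between -63.7 and 26.2 millionths and LF mice between -52.8 and 16.2, where LF mouse 8 alone was far below the others. Hmox1, the inducible haem oxygenase, which macrophages that clear red cells also express, had 0.27 (-0.79 to 1.31). HF mice 3 and 5, at 344 and 628 millionths, stood above the other HF mice, all between -98.0 and -84.8, and LF mouse 3, at 671, above the other LF mice, which reached 90.9 at most. The mean standardized level of 15 probe sets of 10 Kupffer cell and macrophage genes ranged between -0.23 and 2.57 in HF mice and between -0.81 and 1.63 in LF mice. It was highest in HF mouse 3 and LF mouse 3, and 1 in HF mouse 5. HF mouse 4 had 0.91 there but an Hmox1 value of -94.2 millionths, among the low HF mice. Standardized differences of the 15 probe sets lay between -0.01 for Marco 1458297_s_at and 1.44 for the defining marker Clec4f, with a median of 0.79. The part of these cells in the Hmox1 values was not tested. Among the markers followed for 8 cell types, 1 probe set passed, Lrat 1421345_at of stellate cells (3.01; limma, adjusted p = 0.0300). The other Lrat probe set, 1444487_at, had 1.21 (adjusted p = 0.352), and over the 12 stellate probe sets 6 had higher values in HF and the median was 0.07. Values were higher in HF for 3 of 14 hepatocyte probe sets (median -0.57) and 1 of 7 of bile duct cells (median -0.47). They were higher for 8 of 12 of sinusoidal endothelial cells (median 0.62) and 3 of 5 of red blood cells (median 0.13). The endothelial genes were split. Fcgr2b (0.55 to 1), which gave most of the higher probe sets, Clec4g (0.30 and 1.04) and Kdr (1.97) had higher values. Lyve1 (-1.52 and -1.54), Stab2 (-0.77) and Pecam1 (-0.82) had lower ones. All 6 probe sets of lymphocytes and NK cells had higher values in HF, with a mean standardized level between -0.22 and 2.42 in HF mice and between -0.34 and 0.40 in LF mice, and 0 passed. The mean standardized level of the neutrophil genes was between 0.30 and 2.32 in HF mice and between -1.14 and 0.52 in LF mice, with none passing and levels of 6.6 to 6.97, and its part in the Gss and Sod2 values was not tested. Without HF mouse 3 the calls of Gss and Sod2 held, at 3.40 and 4.12 (limma, adjusted p = 0.0354 and 0.0206). HF mouse 5, with a neutrophil level of 1.93, stayed in that fit, which is no test of the part of these cells.

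The wider antioxidant pathway was followed in 7 lists of 68 genes, of which 61 were matched with 123 probe sets. Of these 0 rose and 0 fell in HF (limma); 32 (26.0%) had an unadjusted p below 0.05, against 12.9% of all probe sets. Several of the 123 share a gene and are not independent, and 63 had higher values in HF. The lists were chosen with earlier results of these data known. Medians were 0.05 for 17 probe sets of NRF2 regulators, 0.21 for 6 of glutathione peroxidases and -0.35 for 34 of thioredoxin, peroxiredoxin and glutaredoxin enzymes. They were -0.12 for 21 of glutathione precursors and breakdown, 0.13 for 17 of NADPH supply, 0.34 for 18 of haem and iron handling and -0.21 for 10 of conjugate export. Nfe2l2, which encodes NRF2, had -2.59 for 1457117_at (limma, adjusted p = 0.0536) but 0.23 for 1416543_at. Srxn1, sulfiredoxin and an NRF2 target, was picked out after its values were seen and had -2.36, -2.06, -1.93 and -1.04 in its 4 probe sets, none of which passed (limma, adjusted p = 0.0698, 0.106, 0.127 and 0.476). Sod3, a superoxide dismutase counted in the same list as Srxn1 and also picked out after its values were seen, went the other way. It had 2.04 for 1417633_at and 1.68 for 1417634_at, and neither passed (limma, adjusted p = 0.108 and 0.187). Idh1, a source of NADPH in the cytosol, had 2.45 for 1422433_s_at (limma, adjusted p = 0.0636).

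Over the 12 arrays of HF and LF mice, the genes whose values were most like those of Gss 1448273_at were Emilin1, Tmem97 and Fancl (Pearson r = 0.955, 0.946 and 0.942, as a description). Tmem97, a sterol-responsive membrane protein, and Emilin1, a matrix glycoprotein, were themselves called higher in HF, at 5.07 and 2.72 pooled SDs (limma, adjusted p = 0.00206 and 0.0470), and Fancl was not. For Sod2 1417193_at they were Upb1, Fdft1 and Erg28 (r = 0.951, 0.940 and 0.938). Fdft1, squalene synthase, and Erg28, a scaffold protein of sterol synthesis, were called higher in HF at 4.58 and 11.17 (limma, adjusted p = 0.00400 and 1.5e-05). These values share their arrays and the difference between the diets.

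Whether the propagules changed these genes on a high-fat diet was tested by setting HF+P mice against HF mice. None of the 22 member probe sets rose or fell (limma; 0.00222% of all probe sets were called), 10 had higher and 12 lower values in HF+P, and the median standardized difference was -0.01, as over all probe sets. At an unadjusted p below 0.05 there was 1 of 22 (4.55%), against 6.94% of all probe sets. In 0 of 22 were the groups without overlap, against 0.355% of all probe sets. That one was Gsr 1421817_at, with 2.51, 6.53 and 14.1 millionths as lowest, median and highest value relative to the HF mean in HF+P mice, against -7.64, 1.67 and 3.84 millionths in HF mice. The groups overlapped, with 4 HF+P mice beyond the highest HF mouse. The standardized difference was 1.43 (0.19 to 2.61; limma, adjusted p = 0.638; exact permutation p = 0.0238), and that of the other Gsr probe set was 0.91 (-0.23 to 2).

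The genes that had passed in HF against LF, and Osgin1, which had not, showed little difference here. Gss 1448273_at had lowest, median and highest values of -2.58, -0.0962 and 2.50 millionths in HF+P mice, against -1.68, -0.000667 and 1.62 millionths in HF mice. Its standardized difference of -0.02 had an interval of -1.06 to 1.03. Sod2 1417193_at had -0.14 (-1.18 to 0.91), with HF+P mouse 3 the lowest of the 12 mice at -3.63 millionths, and the other Sod2 probe sets lay between -0.21 and 0.00. Osgin1 had -0.26 (-1.30 to 0.80), with HF+P mice between -8830 and 7170 millionths and HF mice between -5700 and 7040. Intervals about 2 pooled SDs wide do not show that the groups were alike. Both comparisons use the same HF mice, and their values are set side by side for that reason.

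Among the remaining members Cat had 0.52 and 0.59, Nqo1 0.27 (-0.78 to 1.32) and Gclc -0.21 and 0.16. The probe sets of Gclm differed in sign, at -0.65 and 0.61, and those of Sod1 lay between -0.80 and 0.91. Hmox1 had -0.60 (-1.67 to 0.49). HF+P mice lay between -134 and 13.1 millionths for Hmox1, against -112 to 209 in HF mice, where HF mice 3 and 5 were again the highest. The macrophage genes had lower values in HF+P in all 15 probe sets, with a mean standardized level between -1.77 and 0.27 in HF+P mice and between -1.08 and 1.92 in HF mice. Values were also lower in HF+P for all 6 probe sets of lymphocytes and NK cells, where this level lay between -1.25 and -0.29 in HF+P mice and between -0.99 and 1.77 in HF mice. The same held for all 5 of red blood cells (-1.34 to -0.49 in HF+P mice and -0.63 to 0.58 in HF mice) and all 3 of neutrophils (-1.71 to -0.26 in HF+P mice and -0.64 to 1.14 in HF mice). None of these probe sets passed, and their part in the members' values was not tested. Of the 123 probe sets of the wider pathway 0 rose and 0 fell (limma); 8 (6.50%) had an unadjusted p below 0.05, against 6.94% of all probe sets.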

How the data were processed

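Biotinylated RNA was hybridised to Affymetrix 3' IVT arrays, per the labels' protocols. R 2.7.2 was used, per the submitters' processing notes; the method of summarising and scaling, and the log base, is not stated in these sources. The deposited values, 45101 probe sets in 24 columns, lie between 5.36 and 15 and were handled as log2. The 64 control probe sets were left out. The platform annotation gives 34945 probe sets a single symbol and 932 more than one; the remaining 9160 are unnamed here. Each value set of 12 columns was fitted in limma 3.58.1 (lmFit, eBayes; R 4.3.3) with no covariate, on the whole table. Intervals come from the noncentral t distribution with 10 degrees of freedom. The number of arrays limits the precision.

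Members and gene lists were chosen with earlier results of these data known. Named were all members, pathway genes past the threshold (none), the 3 genes most like each called member, and a few others singled out after their values were seen. Mouse numbers recur between groups, with no stated pairing; deviations of same-numbered mice correlated between -0.13 and 0.10 in HF against LF and between 0.03 and 0.21 in HF+P against HF. Each label was taken as a separate animal; batches are not stated in the labels. Other settings tried were 3 scalings, 1 probe set per gene, a brightness filter, trend and robust variance, array weights, fits without each mouse in turn, and the mouse number as a block.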

Additional observations from a re-analysis of the deposited data

Results flagged for a closer look

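In 5 of 88 sets of 6 mice, 1 animal stood apart from the rest by a gap, as a share of the whole range, above Dixon's 95% value for 6 samples, which chance gives in about 1 of 20 sets. For Sod1 1451124_at, HF mouse 8 was the highest with a gap of 0.736 of the range, at 52.8 millionths above the LF mean where the other HF mice reached 3.81. The same array stood apart again, by 0.736, when processed with the HF+P arrays, and HF+P mouse 8 did so by 0.648, at 42.0 millionths above the HF mean where the others reached 7.89. For Gclm 1439050_at, HF mouse 5 was the highest with a gap of 0.675, at 27.0 millionths where the other HF mice reached 8.77. For Nqo1, LF mouse 8 was the lowest with a gap of 0.764, at -52.8 millionths where the other LF mice lay between -0.0852 and 16.2. No called probe set was among them.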

How the results depend on the processing

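In HF against LF the calls of Gss 1448273_at and Sod2 1417193_at held in all 12 fits without 1 mouse (standardized differences 3.35 to 4.74 and 3.68 to 5.47), with array weights, with trend and robust variance and with centring on the median deviation. The members called were 2 or 3 in the fits without 1 mouse, and all probe sets called were between 131 (without LF mouse 5) and 325 (without HF mouse 5). In HF+P against HF no member was called in any setting, and between 0 and 2 probe sets of the table were called without 1 mouse.

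Column-median centring gave 42369 calls, 322 higher and 42047 lower in HF, and 19 members, 1 higher and 18 lower; in HF+P against HF it gave 2 calls. Called or newly called signs that turned there were those of Gss (-2.12 and -2.15), Gclc 1424296_at (-2.01), Gclm 1439050_at (-1.95), Sod1 (-2.80, -2.76, -1.81 and -2.29) and Sod2 (-2.52, -2.61, -2.39 and -1.56); Gclm 1418627_at (-0.04) and Sod1 1440222_at (-0.90) also turned and did not pass. Quantile normalisation gave 6766 calls, 174 higher and 6592 lower, and 3 members, Osgin1 higher and Gss 1448273_at (-1.83) and Sod2 1417194_at (-1.73) lower, both with turned signs. It also turned, without a call, Gss 1441931_x_at (-1.04), Gclm 1439050_at (-1.14), Sod1 1435304_at (-0.41) and Hmox1 (-0.35), and put both Gsr probe sets at 0. Among the probe sets above the median level 568 were called, and 4 members: Gss, 2 probe sets of Sod2 and Osgin1; fewer probe sets were tested there. With 1 probe set per gene 332 genes were called, 3 of them members.

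With the mouse number as a replicate block 246 probe sets and 2 members were called, Sod2 at 4.57 and Osgin1 at 4.06, while Gss had 3.55 (limma, adjusted p = 0.0557). With the block each difference was divided by the residual SD after fitting the mouse numbers. These values are therefore not on the scale of the other standardized differences. HF mice correlated best with the LF mouse of their own number in 4 of 6 cases, and HF+P mice with their own HF number in 3 of 5. Each was set against all 6 mice of the other group. Whether the numbers mark a pairing was not tested, nor was the cause of the changed calls and signs. Of the 22 probe sets, 8 had the same rank on all HF and LF arrays and so no value after quantile normalisation.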
